A study of Mus musculus with 8 samples.

Results

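Hindbrain and telencephalic choroid plexus epithelial cells were compared by RNA-seq after purification by fluorescence-activated cell sorting. The comparison used 4 of the 8 libraries of the series: 2 from hindbrain cells, taken from the choroid plexus of the fourth ventricle, and 2 from telencephalic cells, taken from the choroid plexus of the lateral ventricles. All 4 came from mouse embryos at stage E18.5 (late gestation) of the strain labelled ICR (CD1), and the sorted cells were positive for Ttr::RFP, a red fluorescent reporter of the transthyretin gene Ttr. The other 4 libraries came from unsorted, whole choroid plexus of CD1 embryos of the same age and regions, 2 per region. The design text calls the 2 libraries of each group biological replicates and says that the regions were isolated from the same brains. The sources used here do not say whether embryos were pooled. Sorted and whole-tissue libraries were taken to come from different brains, so sorting cannot be told apart from brain or preparation. Changes with the sort below, and genes raised, lowered or depleted by it, are differences between sorted cells and whole tissue. The study asked about the positional identity of the choroid plexus and what each region adds to the cerebrospinal fluid, and the comparison of sorted cells bears on which regional transcripts belong to reporter-positive cells.

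The choroid plexus is a sheet of secretory epithelium over a core of connective tissue, blood vessels and macrophages, and it projects into each brain ventricle. Its epithelial cells make cerebrospinal fluid by moving ions and water, carry vitamins and hormones from blood, and secrete proteins such as transthyretin. The epithelium of each ventricle arises from the dorsal midline of the neural tube at its own level of the head-to-tail axis, where transcription factors such as the Hox family (hindbrain) and Emx2 or Six3 (forebrain) mark position. A reporter sort enriches the epithelium, but reporter-positive events can still carry RNA of other cells.

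Total counts were 18562464 to 31613434 in the sorted and 8849053 to 21932900 in the whole-tissue libraries. Ttr took 16.4% to 23.6% of the counts of a sorted library and was higher in sorted cells than in whole tissue (log2 change 0.59 in telencephalic and 0.40 in hindbrain cells), and the transcript of ribosomal RNA, Rn45s, took 6.49% to 13.9%. Levels are given as CPM, the counts of a gene relative to the total of its library after scaling by edgeR's TMM factors, in the order replicate 1, replicate 2. The first principal component of the 4 sorted libraries held 61.8% of their variance and parted the regions, and the second held 23.9% and parted hindbrain replicate 1 from hindbrain replicate 2. The 2 hindbrain sorted libraries differed from each other more than any other replicates did, with a chi-square per degree of freedom of 61.1 against 15.8 for the telencephalic sorted libraries. The Y-linked gene Ddx3y had 20.9 and 54.4 against 23.1 and 56.1 CPM, so replicate 2 was the higher library in both regions.

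Of 15698 genes tested, 2383 were called in the sorted cells (15.2%), where called means a Benjamini-Hochberg adjusted p below 0.05 in edgeR's quasi-likelihood test. Hindbrain cells had higher levels of 1422 genes (9.06%) and lower levels of 961 (6.12%). The called genes that were higher differed by more: 893 of them passed 2-fold and 142 passed 8-fold, against 324 and 61 of the lower ones, and the median size of the log2 change was 1.33 against 0.76. The share of called genes that were higher was 59.7% under TMM scaling and 83.5% with library totals as the scale, which moves the median log2 change of all genes by 0.20. Where a named gene lost its call on that scale, both values are given. The count of called genes was 1051 without telencephalic sorted replicate 1, 1545 without telencephalic sorted replicate 2 and 788 when tested against a 1.5-fold change, and 0 of the 2383 genes turned direction under any of these.

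**Figure D1:**
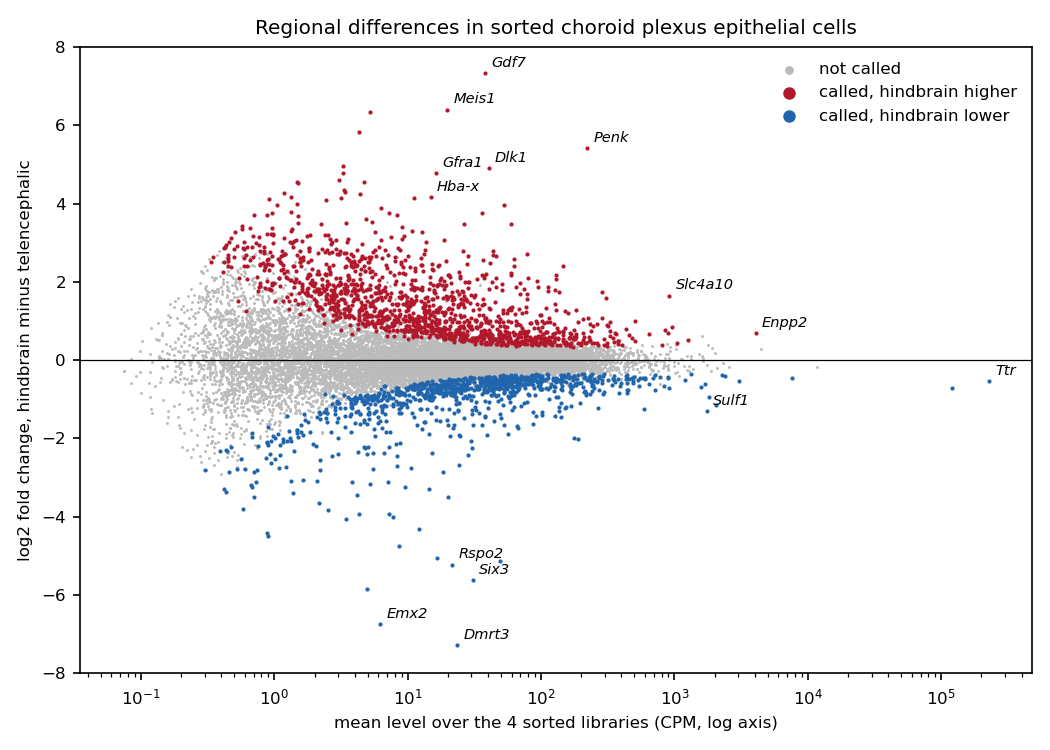
Each of the 15371 points is a gene with more than 3 counts in each region of the sorted cells. The horizontal axis is the mean level over the 4 sorted libraries (CPM, log axis) and the vertical axis the log2 fold change, hindbrain minus telencephalic. Called genes that were higher in hindbrain cells (red) reach larger changes than those that were lower (blue), and Ttr, the most abundant named gene, lies just under 0 at -0.54.

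The largest increases in hindbrain cells were of genes that were close to absent from the telencephalic cells. They were led by a roof plate ligand, a Hox cofactor and an opioid precursor. Gdf7, a ligand of the bone morphogenetic protein (BMP) family, was at 0.0756 and 1.05 CPM in the telencephalic libraries and 75.6 and 74.4 CPM in the hindbrain libraries (log2 change 7.34 ± 0.47, adjusted p = 1.57e-06; here and below ± is the standard error of the fit, with n = 2 libraries per group). Meis1, a homeodomain partner of Hox proteins, was at 0.227 and 0.806 CPM in the telencephalic libraries and 40.9 and 37.3 CPM in the hindbrain libraries (6.40 ± 0.39, adjusted p = 1.11e-06). Both genes thus stood far apart between the regions, although replicate 2 was the higher of the telencephalic libraries for each. In bulk RNA a higher level can come from more cells that express a gene or from more RNA per cell, and these cannot be told apart here. Penk, the precursor of the enkephalin peptides, was at 7.86 and 12.6 CPM in the telencephalic libraries and 557 and 306 CPM in the hindbrain libraries (5.42 ± 0.31, adjusted p = 5.28e-07). Its hindbrain libraries differed from each other, and the lower of them was still far above both telencephalic ones. Dlk1, an imprinted transmembrane protein related to Notch ligands, was at 2.34 and 2.98 CPM in the telencephalic libraries and 70.8 and 85.7 CPM in the hindbrain libraries (4.90 ± 0.20, adjusted p = 3.10e-08). Gfra1, the co-receptor for glial cell line-derived neurotrophic factor, was at 0.302 and 2.29 CPM in the telencephalic libraries and 28.3 and 34.7 CPM in the hindbrain libraries (4.78 ± 0.49, adjusted p = 3.44e-05). Ngfr, the p75 receptor for neurotrophins, was at 4.61 and 8.37 CPM in the telencephalic libraries and 90.9 and 106 CPM in the hindbrain libraries (3.96 ± 0.25, adjusted p = 1.57e-06). No hindbrain library of these genes overlapped a telencephalic one.

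The other 6 of the 12 largest increases were mostly of genes of the cell surface and the extracellular matrix. Cdh10, a classical cadherin, was at 4.88 and 4.96 against 86.4 and 46.7 CPM, telencephalic against hindbrain (3.76 ± 0.27, adjusted p = 2.84e-06). Thsd4, a fibrillin-binding matrix protein, was at 0.718 and 1.86 against 22.5 and 19.4 CPM (4.13 ± 0.30, adjusted p = 3.29e-06), and Adamts2, which trims procollagens, at 0.605 and 1.49 against 16.4 and 10.3 CPM (3.76 ± 0.37, adjusted p = 2.93e-05). Cntn3, a contactin of the immunoglobulin superfamily, was at 0.643 and 1.86 against 19.9 and 10.7 CPM (3.71 ± 0.42, adjusted p = 7.57e-05). Sgip1, which acts in endocytosis, was at 0.378 and 1.36 against 12 and 11.3 CPM (3.88 ± 0.38, adjusted p = 2.87e-05). For these 5 genes the hindbrain libraries were all above the telencephalic ones, with hindbrain replicate 1 the higher of its group each time. Hba-x, the embryonic zeta globin of red blood cells, was at 1.70 and 1.36 against 35.2 and 21.1 CPM (4.17 ± 0.35, adjusted p = 9.17e-06). Its level in hindbrain whole tissue was 1.65 and 1.70 CPM. Since alpha-type globins resemble each other, reads could be assigned to the wrong member, which was not tested. Hbb-y, another embryonic globin, had 13 and 2 counts in telencephalic and 158 and 172 in hindbrain sorted cells. In whole tissue Hbb-y had 3 and 0 counts in telencephalic and 6 and 3 in hindbrain libraries.

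In the other direction, hindbrain cells had very low levels of transcription factors that pattern the forebrain. Dmrt3, a DM-domain factor of the developing cortex, was at 47.4 and 45.4 CPM in the telencephalic libraries and 0.0364 and 0.550 CPM in the hindbrain libraries (-7.28 ± 0.39, adjusted p = 3.83e-07). Emx2, a homeobox gene of the cerebral cortex primordium, was at 11.3 and 13.3 CPM in the telencephalic libraries and 0 and 0.220 CPM in the hindbrain libraries (-6.73 ± 0.54, adjusted p = 7.96e-06). Six3, which specifies the anterior forebrain, was at 71.4 and 49.7 CPM in the telencephalic libraries and 1.09 and 1.36 CPM in the hindbrain libraries (-5.63 ± 0.24, adjusted p = 3.38e-08). The level of all 3 was at or below 1.36 CPM in each hindbrain library. Six3os1, transcribed opposite Six3, was at 93.0 and 97.9 against 2.07 and 3.34 CPM (-5.14 ± 0.20, adjusted p = 3.10e-08), and reads of this overlapping pair could not be assigned by strand. Otx1, a homeobox gene of forebrain and midbrain, was at 38.8 and 34.8 against 4.22 and 2.35 CPM (-3.49 ± 0.25, adjusted p = 2.84e-06).

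Secreted and surface proteins made up most of the remaining large decreases. Rspo2, a secreted enhancer of Wnt signals, was at 38.6 and 45.0 CPM in the telencephalic libraries and 1.05 and 1.17 CPM in the hindbrain libraries (-5.22 ± 0.21, adjusted p = 3.10e-08). Nrn1, the membrane-anchored growth protein neuritin, was at 31.3 and 32.9 against 0.545 and 1.39 CPM (-5.04 ± 0.46, adjusted p = 1.50e-05), and Vit, the matrix protein vitrin, at 17.6 and 15.7 against 0.727 and 0.514 CPM (-4.73 ± 0.30, adjusted p = 1.57e-06). These were near absent in hindbrain cells while their telencephalic libraries lay close together. Mc3r, a melanocortin receptor, was at 11.3 and 17.7 against 0.618 and 1.17 CPM (-4.01 ± 0.34, adjusted p = 9.45e-06), Chodl, the membrane lectin chondrolectin, at 12.97 and 14.4 against 0.982 and 0.807 CPM (-3.92 ± 0.26, adjusted p = 1.82e-06) and Cntn4, another contactin, at 29.6 and 22.8 against 3.45 and 1.94 CPM (-3.28 ± 0.24, adjusted p = 3.44e-06). Ppp2r2c, a regulatory subunit of protein phosphatase 2A, was at 21.2 and 25.1 against 1.49 and 0.807 CPM (-4.32 ± 0.44, adjusted p = 3.44e-05). Cntn3 and Cntn4 thus differed in opposite directions between the regions. The groups did not overlap for any of these 24 genes, a criterion of the rule that chose them, and over all genes tested the hindbrain libraries lay wholly above for 26.1% and wholly below for 25.8%.

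**Figure D2:**
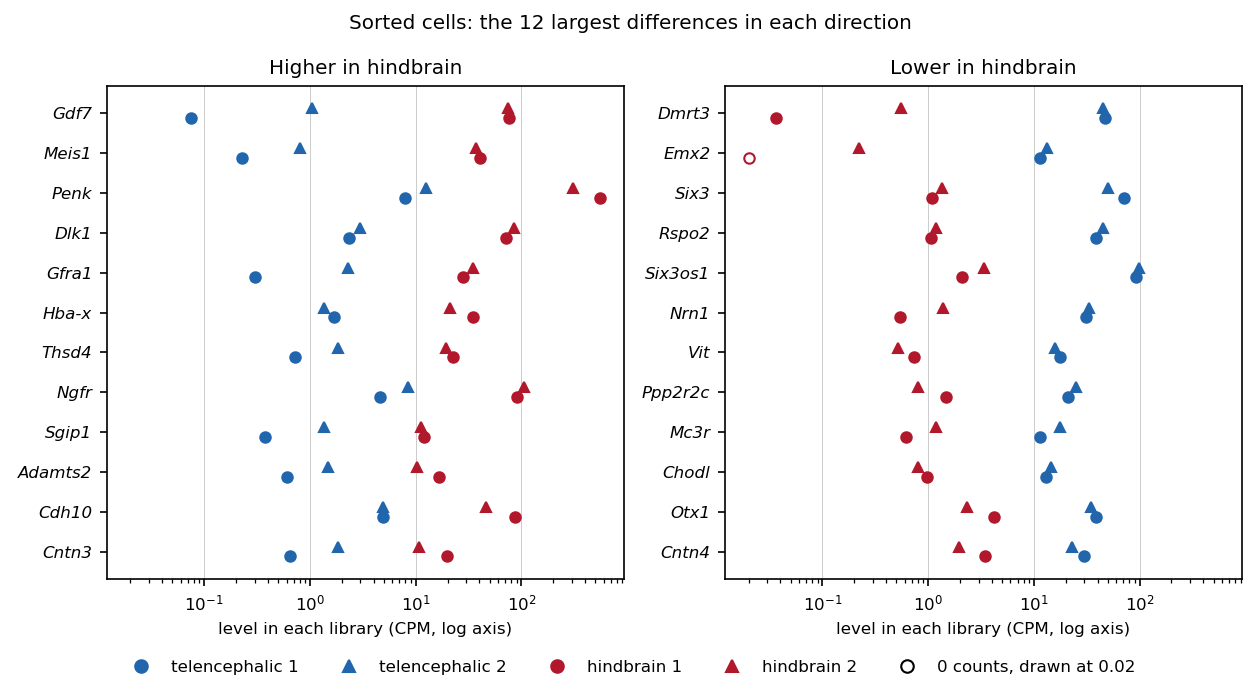
Level of each gene (CPM, log axis) in each of the 4 sorted libraries, for the 12 largest increases and the 12 largest decreases in hindbrain cells. Blue symbols are telencephalic and red ones hindbrain libraries, circles replicate 1 and triangles replicate 2, and the open circle marks 0 counts of Emx2. In every row the red and the blue symbols are apart.

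The start-site sequences of these genes were read from RefSeq (build GRCm38.p6), from 250 bases before to 50 after the annotated start, and 19 of the 24 genes had an entry. They are shown because these genes lead the comparison and Hox and Meis factors were among the genes higher in hindbrain cells. Windows were searched on both strands for the letters TGACAG, bound by Meis factors, and TGATNNAT, bound by Hox-Pbx pairs. The Meis-type letters were found in 5 of the 19 genes, 2 of 11 that were higher (Hba-x and Sgip1) and 3 of 8 that were lower (Six3, Mc3r and Chodl), and in 19.2% of all 32851 windows. The Hox-Pbx-type letters were found in 3 genes (Thsd4, Cntn3 and Cntn4) and in 8.85% of all windows. A gene counted when any of its windows held the letters, while the shares count each window singly, so the measures differ. The gene with the largest change in each direction, Gdf7 and Dmrt3, held neither. The sequences of these 2 genes, and of the gene with the largest change and a Meis-type match in each direction, are given 5′ to 3′ in lower case, with matches in capitals. No match of the motifs overlapped another in them.
Gdf7: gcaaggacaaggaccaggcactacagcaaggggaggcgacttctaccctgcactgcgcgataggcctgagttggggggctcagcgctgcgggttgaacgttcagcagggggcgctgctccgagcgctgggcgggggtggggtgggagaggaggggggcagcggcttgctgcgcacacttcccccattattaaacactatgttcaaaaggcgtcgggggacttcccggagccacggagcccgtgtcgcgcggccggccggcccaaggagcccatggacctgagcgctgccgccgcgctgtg
Hba-x: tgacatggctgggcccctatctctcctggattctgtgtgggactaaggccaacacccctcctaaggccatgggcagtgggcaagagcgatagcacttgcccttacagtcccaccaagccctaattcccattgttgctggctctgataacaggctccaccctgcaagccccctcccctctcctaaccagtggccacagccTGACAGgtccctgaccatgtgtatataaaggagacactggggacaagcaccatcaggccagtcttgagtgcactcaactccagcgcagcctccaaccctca
Dmrt3: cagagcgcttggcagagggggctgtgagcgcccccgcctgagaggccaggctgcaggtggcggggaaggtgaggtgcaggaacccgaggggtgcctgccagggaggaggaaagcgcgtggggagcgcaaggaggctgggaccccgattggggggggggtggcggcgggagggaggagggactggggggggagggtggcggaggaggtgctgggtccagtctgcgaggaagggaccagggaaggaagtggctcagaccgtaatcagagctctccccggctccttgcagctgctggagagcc
Six3: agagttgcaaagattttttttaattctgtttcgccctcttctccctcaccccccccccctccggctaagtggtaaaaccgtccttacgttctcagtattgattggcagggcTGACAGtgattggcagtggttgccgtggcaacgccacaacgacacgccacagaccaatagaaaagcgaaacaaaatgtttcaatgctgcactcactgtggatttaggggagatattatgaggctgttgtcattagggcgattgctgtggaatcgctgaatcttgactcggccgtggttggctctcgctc
The windows lie at chr12:8301905-8302204 on the minus strand for Gdf7, chr11:32276350-32276649 on the plus strand for Hba-x, chr19:25610287-25610586 on the plus strand for Dmrt3 and chr17:85620584-85620883 on the plus strand for Six3. The match starts 51 bases before the annotated start of Hba-x and 139 bases before that of Six3. The reads were aligned to another build, mm9, and the counts carry no positions, so these windows describe the genes and not the reads.

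Among abundant transcripts, ranked by the difference of mean CPM (not divided by gene length), hindbrain cells had more of a lysophospholipase, of bicarbonate and copper transporters and of a chaperone. Enpp2, autotaxin, was at 2765 and 3437 CPM in the telencephalic libraries and 5169 and 4888 CPM in the hindbrain libraries (0.70 ± 0.12, adjusted p = 0.00216). Slc4a10, a sodium-driven bicarbonate transporter, was at 430.4 and 457 against 1455 and 1327 CPM (1.65 ± 0.11, adjusted p = 1.82e-06), and Slc4a5, another bicarbonate transporter of this epithelium, at 620.5 and 758 against 1313 and 1151 CPM (0.84 ± 0.14, adjusted p = 0.00158). In each case both hindbrain libraries were above both telencephalic ones. Prps2, a phosphoribosyl pyrophosphate synthetase, was at 677 and 585 against 1117 and 1041 CPM (0.77 ± 0.12, adjusted p = 0.000865), Hsp90aa1, the inducible cytosolic chaperone, at 632 and 728 against 1130.1 and 1057 CPM (0.69 ± 0.11, adjusted p = 0.00111) and Pcp4l1 at 319.6 and 350.4 against 628 and 708 CPM (1.00 ± 0.12, adjusted p = 0.000138). Slc31a1, the plasma membrane copper importer, was at 977 and 1089 against 1567 and 1407 CPM (0.53 ± 0.12, adjusted p = 0.0121). Slc31a1 was no longer called when telencephalic sorted replicate 1 (0.45, adjusted p = 0.125) or hindbrain sorted replicate 1 (0.44, adjusted p = 0.055) was left out.

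Transthyretin itself led the abundant decreases. Ttr was at 281715 and 256945 CPM in the telencephalic libraries and 158930.0 and 210599 CPM in the hindbrain libraries (-0.54 ± 0.13, adjusted p = 0.0118), and library totals as the scale ended the call (-0.35, adjusted p = 0.0621), as did leaving out telencephalic sorted replicate 1 (-0.48, adjusted p = 0.0763) or hindbrain sorted replicate 1 (-0.36, adjusted p = 0.0938). Sulf1, a heparan sulphate sulphatase, was at 2227 and 2759.8 against 946 and 1071 CPM (-1.31 ± 0.12, adjusted p = 2.15e-05), Slc6a15, a neutral amino acid transporter, at 2300.3 and 2471 against 1314 and 1163 CPM (-0.95 ± 0.11, adjusted p = 0.000101) and Clu, the extracellular chaperone clusterin, at 1952 and 1936 against 1100.1 and 1312 CPM (-0.69 ± 0.11, adjusted p = 0.00137). Ly6e, a membrane-anchored protein of the Ly6 family, was at 2602 and 2979 against 1093 and 1446 CPM (-1.14 ± 0.14, adjusted p = 0.000154). Its level in whole tissue was 154 and 159 against 108 and 125 CPM, a log2 change with the sort of 4.15 in telencephalic and 3.44 in hindbrain cells. Bsg, basigin, was at 3529 and 3655 against 2376 and 2592 CPM (-0.53 ± 0.10, adjusted p = 0.00424) and Igfbp2, a binding protein of insulin-like growth factors, at 2061 and 2019 against 1122 and 1548 CPM (-0.61 ± 0.14, adjusted p = 0.0131). Neither was called with library totals as the scale (Bsg -0.33, adjusted p = 0.0721; Igfbp2 -0.42, adjusted p = 0.0548). Igfbp2 was not called without telencephalic sorted replicate 1, telencephalic sorted replicate 2 or hindbrain sorted replicate 1 either (-0.60, adjusted p = 0.081, -0.63, adjusted p = 0.0526 and -0.40, adjusted p = 0.0698). Lars2, a mitochondrial leucyl-tRNA synthetase, was at 10069 and 7516 against 5931 and 6975 CPM (-0.45 ± 0.14, adjusted p = 0.0461). That call ended with brain as a block (-0.44, adjusted p = 0.0708), with library totals (-0.25, adjusted p = 0.239) and with the 4 sorted libraries fitted alone (-0.45, adjusted p = 0.107). It also ended when telencephalic sorted replicate 1 (-0.22, adjusted p = 0.418), hindbrain sorted replicate 1 (-0.34, adjusted p = 0.202) or any of 3 whole-tissue libraries was left out (telencephalic replicate 1, 0.07; telencephalic replicate 2, 0.0696; hindbrain replicate 2, 0.0507, all adjusted p). Rn45s took 13.9% and 11.6% of the counts of the telencephalic and 6.49% and 11.3% of the hindbrain libraries, in the same order of libraries as Lars2, and its part in the Lars2 result was not tested.

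Markers of the cells beneath the epithelium were less depleted in the hindbrain than in the telencephalic sorted libraries. All 19 macrophage markers were higher in hindbrain sorted cells (median log2 change 2.19, against 0.00 over all genes tested and 9.06% of genes called higher). Their summed level was 54.5 and 91.2 CPM in the telencephalic and 326 and 279 CPM in the hindbrain sorted libraries, and 253 and 277 against 329.5 and 326 CPM in whole tissue, telencephalic against hindbrain. In whole tissue 1 of the 19 was called higher (3.34% of all genes). There the median was 0.57, and 10 of the 19 had an unadjusted p below 0.05 in edgeR. Relative to whole tissue, 16 of the 19 were lower in telencephalic sorted cells (12.5% of all genes) and 2 in hindbrain sorted cells (11.9%), so the sums stood at 27.5% and 92.4% of the whole-tissue level. C1qb, a complement subunit made by macrophages, was at 3.10 and 2.85 against 15.02 and 16.1 CPM in sorted cells (2.38 ± 0.18, adjusted p = 4.71e-06) and at 15.7 and 17.2 against 21.8 and 21.8 CPM in whole tissue. Csf1r, the receptor that macrophages need to survive, was at 11.8 and 16.7 against 47.4 and 42.3 CPM (1.67 ± 0.17, adjusted p = 3.44e-05), and the mannose receptor Mrc1 at 5.71 and 21.1 against 72.7 and 45.2 CPM (2.19 ± 0.41, adjusted p = 0.00334). Telencephalic replicate 1 was the lowest library for Csf1r and Mrc1, and none of the 3 genes overlapped between the regions. None of the list was at 0 in any sorted library, and with 1 library left out 14 to 18 of the 19 remained called.

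Mural cells are the pericytes and smooth muscle of vessels. Of 13 mural markers 9 were higher in hindbrain sorted cells and 4 were not called, with a median of 1.12. The sums were 99.0 and 88.3 CPM in the telencephalic and 336 and 302 CPM in the hindbrain sorted libraries, and 480.2 and 505 against 449.6 and 546 CPM in whole tissue, so that the sorted levels were 19.0% and 64.1% of the whole-tissue level. The whole-tissue sums of the regions overlapped. The sort lowered 11 of the 13 in telencephalic and 7 in hindbrain cells. Abcc9, a subunit of the potassium channel of pericytes, was at 20.9 and 18.9 against 117 and 93.5 CPM (2.40 ± 0.16, adjusted p = 1.82e-06), and Pdgfrb, the pericyte receptor for platelet-derived growth factor, at 30.5 and 25.7 against 113 and 91.8 CPM (1.86 ± 0.14, adjusted p = 4.10e-06). In whole tissue Pdgfrb was at 91.5 and 97.3 against 85.8 and 90.1 CPM; there both hindbrain libraries lay below both telencephalic ones. The 4 mural markers that were not called were Tagln, Mcam, Myh11 and Higd1b.

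The summed level of mesenchymal markers was 1671 CPM or more in every library, sorted or not. Single members could be near absent, such as Mfap5 with 1 and 0 counts in the telencephalic sorted libraries. Of 17 tested, 13 were higher in hindbrain sorted cells, 1 (Fbln1, fibulin 1) was lower and 3 were not called, with a median of 2.08. In whole tissue 6 of the 17 were called higher (3.34% of all genes) and 1 lower (2.45%), with a median of 0.60. There 14 had an unadjusted p below 0.05 in edgeR. The sort lowered 11 in telencephalic cells (12.5% of all genes). In hindbrain cells it lowered 3 (11.9%) and raised 2 (10.2%). The sums stood at 82.3% of the whole-tissue level in telencephalic and 98.0% in hindbrain sorted cells. Col1a1, of fibrillar collagen, was at 19.3 and 22.1 CPM in the telencephalic libraries and 171 and 102 CPM in the hindbrain libraries (2.72 ± 0.25, adjusted p = 1.49e-05), Col3a1 at 50.1 and 49.7 against 257 and 164 CPM (2.08 ± 0.20, adjusted p = 2.55e-05) and Prrx1, a mesenchymal homeobox gene, at 3.89 and 1.92 against 31.5 and 17.8 CPM (3.03 ± 0.32, adjusted p = 4.16e-05). Among the 4 sorted libraries hindbrain replicate 1 was the highest for all 3, while Col1a1 was higher than that in both hindbrain whole-tissue libraries (180.4 and 246 CPM). The summed level was 1671 and 1850.0 CPM in the telencephalic and 2758 and 2245 CPM in the hindbrain sorted libraries, but 3 members that were not called made up much of it. These were Pdgfra at 379 and 408 against 399.9 and 388 CPM, Ogn at 626 and 764 against 502 and 528 CPM and Col5a1 at 114 and 119 against 134 and 119.8 CPM. The groups overlapped for Pdgfra, and in whole tissue Pdgfra was at 389 and 411 against 378 and 350.3 CPM. With brain as a block Ogn was called lower (log2 change -0.43 ± 0.12, adjusted p = 0.0213).

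Endothelial RNA was much lower in sorted cells than in whole tissue in both regions. Of 16 endothelial markers 15 were lower in sorted than in whole tissue in each region, and the sums stood at 17.0% and 24.0% of the whole-tissue level. The median log2 change with the sort was -4.68 in telencephalic and -3.85 in hindbrain cells. Kdr, not called between the regions (-0.31, adjusted p = 0.0854), had 2418 and 1670 counts in telencephalic and 2046 and 2243 in hindbrain sorted libraries. These were the most of the list, so the telencephalic sorted sums rest mostly on Kdr and understate the fall of the other members. Still 6 of 16 were higher in hindbrain sorted cells and 1 lower, with a median of 0.97 (0.87 with members of 3 counts or fewer at their bound, and 3 called with the 4 sorted libraries fitted alone). Cdh5, the vascular cadherin, was at 9.90 and 8.62 against 42.8 and 36.4 CPM (2.09 ± 0.14, adjusted p = 1.82e-06) in sorted cells and 149 and 165 against 210.1 and 225 CPM in whole tissue. Emcn, endomucin, was at 7.75 and 6.57 against 34.2 and 31.1 CPM (2.18 ± 0.15, adjusted p = 1.92e-06). Among defining markers, Pecam1 was at 0.454 and 1.12 against 1.64 and 1.94 CPM in sorted cells, one of the 6 called higher (1.31 ± 0.32, adjusted p = 0.0159), and at 62.6 and 61.4 against 60.4 and 62.2 CPM in whole tissue. It was not called without telencephalic sorted replicate 1 (0.68, adjusted p = 0.262) or with the 4 sorted libraries fitted alone (1.23, adjusted p = 0.265). Cldn5 had 3 counts in all 4 together. Of 7 erythroid markers 1 was higher (Hbb-y, an embryonic globin, at 0.491 and 0.124 against 5.75 and 6.31 CPM; 4.14 ± 0.58, adjusted p = 0.000387). Neutrophil and mast cell markers had 0 of 9 called by edgeR, 0 by DESeq2 and 0 at an unadjusted p below 0.05. In whole tissue 7 of the 9 were higher in hindbrain, among them the neutrophil protein S100a8 at 0.611 and 0.419 against 13.8 and 12.5 CPM. In sorted cells S100a8 was at 4.23 and 1.12 against 3.67 and 2.16 CPM. The sort raised 3 and lowered 1 in telencephalic cells (median log2 change 2.15) and lowered 8 in hindbrain cells (median -2.37). The difference of effects was called negative for 4. Neuronal markers had 1 of 18 higher and 4 lower, with 3 called without telencephalic sorted replicate 1, 2 without telencephalic sorted replicate 2 and 3 without hindbrain sorted replicate 1. Among 14 neural progenitor and glial markers 4 were higher and 2 lower, with 1 called without telencephalic sorted replicate 1 and 3 without telencephalic sorted replicate 2. The medians were 0.37 for erythroid, 0.10 for neutrophil and mast cell, -0.29 for neuronal and 0.36 for progenitor and glial markers. Whether RNA of these other cells contributed to a given regional difference in the sorted libraries was not tested.

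**Figure D3:**
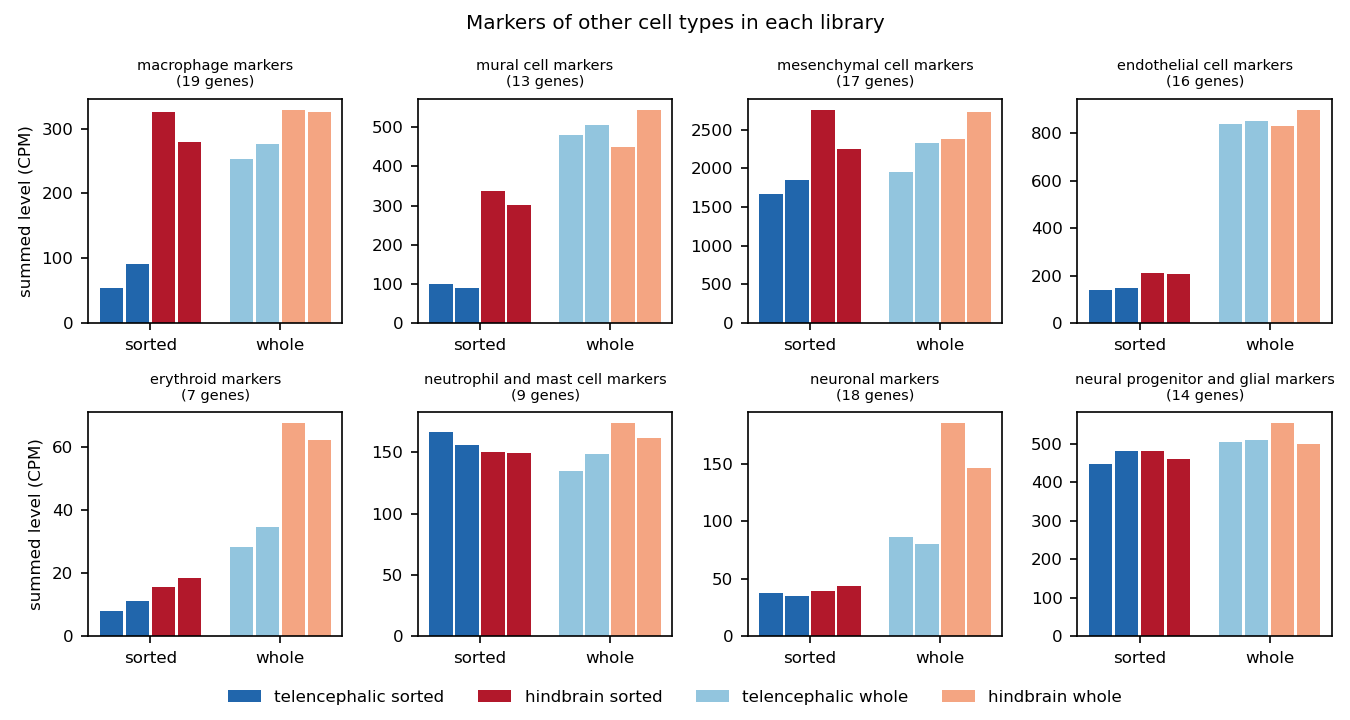
Summed level (CPM) of the tested markers of 8 other cell types in each of the 8 libraries, with 1 bar per library (no error bars) and axes that start at 0. Macrophage and mural cell sums in the hindbrain sorted libraries (dark red) are more than 3 times those in the telencephalic sorted libraries (dark blue), while the whole-tissue macrophage bars (pale) run from 253 to 329.5 CPM.

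The change with the sort was used to describe the regional genes further. Of the 1422 genes higher in hindbrain cells, 628 (44.2%) had a higher level in hindbrain sorted cells than in hindbrain whole tissue, 610 (42.9%) were down by up to 2-fold and 184 (12.9%) by more. Of the 961 genes lower in hindbrain cells, 677 (70.4%) were higher in telencephalic sorted cells than in telencephalic whole tissue, 241 (25.1%) down by up to 2-fold and 43 (4.47%) by more. With library totals as the scale the shares above 0 were 32.8% and 42.9%. Of all genes tested, 50.7% had a change with the sort above 0 in hindbrain cells and 51.2% in telencephalic cells. By the test 10.2% and 9.88% of all genes were called higher after the sort. Gdf7, Meis1, Penk and Gfra1 had changes with the sort of -0.13, 0.41, -0.66 and 0.83 in hindbrain cells. Dmrt3, Emx2 and Six3 had changes of 0.30, 0.52 and 0.09 in telencephalic cells. None of these 7 genes was called between sorted cells and tissue, while Thsd4, at -1.51 in hindbrain cells, was called lower after the sort.

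Genes that were called both between the regions and as raised by the sort included ligands, transporters and metabolic enzymes. In hindbrain cells these were Dlk1, Hba-x and Cdh10, described above, with C7, Hpca and Ccl3. C7, a complement component, was at 1.78 and 1.05 against 9.60 and 11.9 CPM (2.88 ± 0.30, adjusted p = 4.16e-05), and Hpca, the calcium sensor hippocalcin, at 2.49 and 1.49 against 19.1 and 10.9 CPM (2.87 ± 0.37, adjusted p = 0.000223). Their hindbrain whole-tissue levels were 5.20 and 5.71 CPM for C7 and 7.42 and 7.41 CPM for Hpca. The log2 change with the sort in hindbrain cells was 1.35 for Dlk1, 4.07 for Hba-x and 1.06 for Cdh10. For Dlk1 and Cdh10 the change in telencephalic cells was in the other direction, -0.96 and -1.24. In telencephalic cells Slit3, a secreted guidance ligand, was at 281 and 285 against 69.2 and 72.7 CPM (-1.99 ± 0.11, adjusted p = 3.95e-07) and Slc7a11, the cystine-glutamate exchanger, at 309 and 297 against 83.7 and 65.8 CPM (-2.02 ± 0.15, adjusted p = 4.41e-06). Ltc4s, leukotriene C4 synthase, was at 35.9 and 29.1 against 2.55 and 6.49 CPM (-2.85 ± 0.33, adjusted p = 8.38e-05), and Maob, monoamine oxidase B, at 11.9 and 14.7 against 3.09 and 2.97 CPM (-2.13 ± 0.25, adjusted p = 9.21e-05). Ly6a was at 39.2 and 57.3 against 11.96 and 11 CPM (-2.07 ± 0.19, adjusted p = 1.50e-05), with a log2 change with the sort of 2.72 in telencephalic and 0.03 in hindbrain cells. For each of these 5 genes the telencephalic libraries lay above both hindbrain ones.

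Whole tissue shares no library with the sorted cells, so the regional differences could be set side by side. In whole tissue 909 genes passed the test (5.79%), with 524 of them at a higher (3.34%) and 385 at a lower level (2.45%) in hindbrain tissue. Of the genes higher in hindbrain sorted cells, 391 were also called higher in whole tissue, which is 27.5% of the sorted and 74.6% of the whole-tissue list. Of those lower, 286 were shared, 29.8% and 74.3% of the lists. Of the called genes, 5 that were higher and 2 that were lower in sorted cells were called in the opposite direction in whole tissue. The difference of the regional effects was called for 211 genes (1.34%), 173 of them with the greater hindbrain excess in sorted cells (1.10%) and 38 with the smaller (0.242%). That count of 211 was 98 without telencephalic sorted replicate 1, 473 without hindbrain sorted replicate 2, 81 and 58 without telencephalic whole replicate 1 and 2, and 124 and 133 without hindbrain whole replicate 1 and 2. With brain as a block it was 337.

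Among the most positive of these differences were those of 2 members of the mural list, Rgs5 and Kcnj8. Rgs5, a pericyte marker, was at 2.12 and 2.73 CPM in the telencephalic libraries and 17.3 and 28.8 CPM in the hindbrain libraries (3.28 ± 0.27, adjusted p = 8.10e-06) in sorted cells but at 91.3 and 100.1 against 83.4 and 107 CPM in whole tissue, a difference of effects of 3.28 ± 0.34, adjusted p = 0.00101. Kcnj8, a pericyte potassium channel, was at 0.416 and 1.18 against 9.27 and 8.44 CPM (3.60 ± 0.36, adjusted p = 2.93e-05), with a difference of 3.07 ± 0.45, adjusted p = 0.00492. Sparcl1, a matrix protein of vessels, was at 2.12 and 1.55 against 21.2 and 12.7 CPM (3.17 ± 0.27, adjusted p = 1.09e-05) and fell with the sort from 209 and 194 CPM and 219.8 and 279 CPM in whole tissue (difference 2.86 ± 0.34, adjusted p = 0.00179). Tmem100, an endothelial membrane protein, was at 0.567 and 0.248 against 9.42 and 7.23 CPM (4.23 ± 0.40, adjusted p = 1.81e-05; difference 2.67 ± 0.51, adjusted p = 0.0225). Filip1, which encodes a filamin-interacting protein, had a difference of 2.55 ± 0.55, adjusted p = 0.0425. All 5 were called lower in telencephalic sorted cells than in telencephalic whole tissue (log2 change -3.25 to -6.74), and the summed mural and endothelial markers moved the same way, in the amounts given above. Their part in these 5 results was not tested.

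For other genes the hindbrain level, relative to the telencephalic one, was lower in sorted cells than in whole tissue. Reln, the secreted glycoprotein reelin of neurons, was at 4.35 and 3.53 against 1.53 and 2.35 CPM in sorted cells (-1.03 ± 0.31, adjusted p = 0.0407) and 5.32 and 8.07 against 35.9 and 23.8 CPM in whole tissue (difference -3.22 ± 0.42, adjusted p = 0.00241). Its decrease in sorted cells was not called with library totals as the scale (-0.84, adjusted p = 0.0697) or with the 4 sorted libraries fitted alone (-1.03, adjusted p = 0.157), nor without telencephalic sorted replicate 1, telencephalic sorted replicate 2, hindbrain sorted replicate 1 or telencephalic whole replicate 2 (-0.87, adjusted p = 0.262; -1.17, adjusted p = 0.0734; -0.76, adjusted p = 0.178; -1.04, adjusted p = 0.0505). Slc6a13, a transporter of gamma-aminobutyric acid, was at 9.53 and 12.2 against 5.13 and 7.30 CPM (-0.79 ± 0.20, adjusted p = 0.0206) and 15.5 and 17.0 against 29.8 and 29.4 CPM in whole tissue (difference -1.67 ± 0.28, adjusted p = 0.0105). Its decrease in sorted cells ended with library totals (-0.60, adjusted p = 0.0521), with the 4 sorted libraries fitted alone (-0.80, adjusted p = 0.0981), and when telencephalic sorted replicate 2 (-0.62, adjusted p = 0.14) or hindbrain sorted replicate 1 (-0.56, adjusted p = 0.0948) was left out. Maob and Ly6a had differences of -2.92 ± 0.38, adjusted p = 0.00241 and -2.69 ± 0.28, adjusted p = 0.00101, and neither was called between the regions in whole tissue. Ppp2r2c had a difference of -2.82 ± 0.58, adjusted p = 0.0333. In whole tissue it had 266 and 127 counts in the telencephalic and 194 and 54 in the hindbrain libraries. The hindbrain libraries had more total counts, so Ppp2r2c was lower in the hindbrain in both preparations. Ranbp3l, which encodes a nuclear export factor, was at 2.04 and 1.61 against 3.60 and 3.78 CPM in sorted cells and 2.08 and 3.67 against 22.2 and 18.2 CPM in whole tissue (difference -1.87 ± 0.41, adjusted p = 0.0439).

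**Figure D4:**
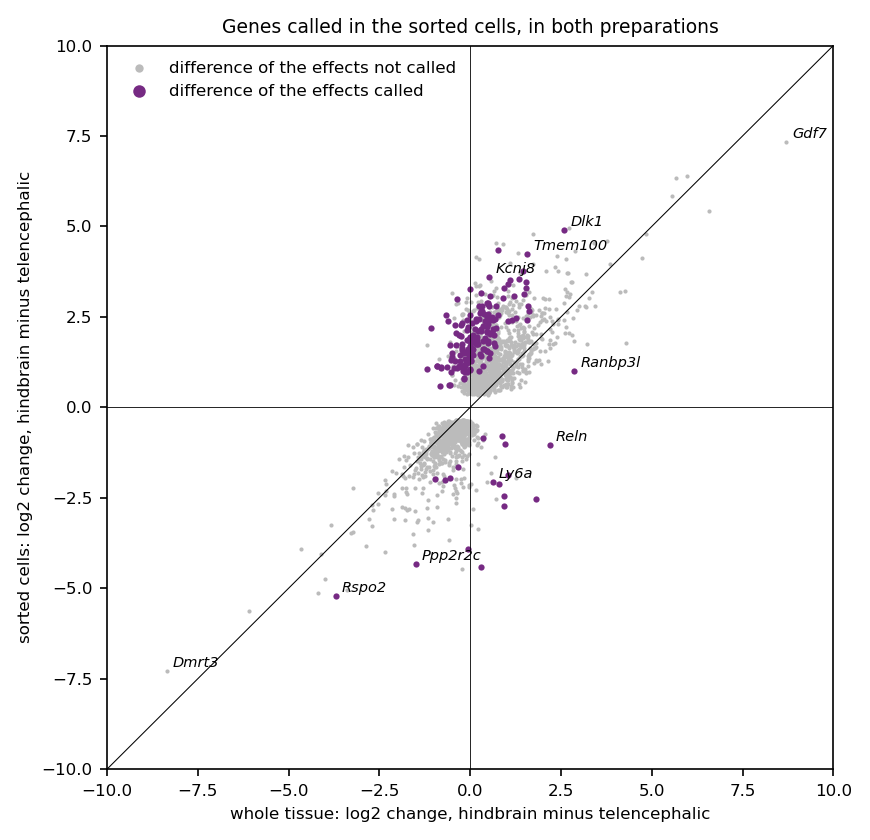
Log2 change, hindbrain minus telencephalic, in whole tissue (horizontal) and in sorted cells (vertical) for 2282 genes called in the sorted cells that had more than 3 counts in each group. Purple points mark genes for which the difference of the effects was called. Most purple points lie above the diagonal line of equal effects, and Gdf7 and Dmrt3 lie at opposite ends of it.

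Position along the head-to-tail axis was read from 4 lists of regulators. For these and the lists below, the shares over all genes tested were 9.06% called higher, 6.12% lower and 15.2% either way. Of 7 tested Hox genes 6 were higher in hindbrain cells and 1 was not called. Hoxa2 had 2 counts in the telencephalic and 459 in the hindbrain libraries, which gives a ratio per library size of 178 (95% counting interval 49.1 to 1480). Hoxa3 had 0 and 149 counts and was at least 38.6-fold higher in hindbrain cells, taking 3 counts over the group as the floor. The telencephalic cells were thus at or near 0 counts for both genes. Of 14 hindbrain and boundary regulators 11 were higher and 3 not called, among them Meis2 at 3.86 and 3.91 against 21.3 and 16.3 CPM (2.28 ± 0.19, adjusted p = 9.68e-06) and the boundary factor En2 at 0.227 and 0.248 against 5.45 and 6.31 CPM (4.61 ± 0.41, adjusted p = 1.40e-05). Of 13 forebrain regulators 8 were lower and 1 higher. The exception was Nr2f1, an orphan nuclear receptor, at 3.63 and 3.10 against 18.2 and 13.2 CPM (2.21 ± 0.24, adjusted p = 5.84e-05). Of 16 roof plate and choroid regulators 3 were higher and 13 not called, a share called of 18.8%, close to the 15.2% of all genes tested. The median log2 changes, with members of 3 counts or fewer at their bound, were 5.27 for the Hox genes, 2.36 for the hindbrain list, -2.81 for the forebrain list and -0.03 for the roof plate list (without the bounds 7.19, 2.85, -2.81 and -0.03). Foxc1, a forkhead factor that mesenchyme expresses too, was at 7.03 and 4.65 against 18.04 and 13.9 CPM (1.43 ± 0.23, adjusted p = 0.00123) and had changes with the sort of -1.83 and -0.78, beside the mesenchymal markers given above. Mcidas, a multiciliation regulator listed under its older symbol Gm6320, was at 9.37 and 13.3 against 18.1 and 24.8 CPM (0.93 ± 0.22, adjusted p = 0.0122), and leaving out telencephalic sorted replicate 1 ended the call (0.69, adjusted p = 0.151).

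Receptors and ligands of the neurotrophic families differed at the level of single genes. Of 18 tested neuropeptides and neurotrophic factors 4 were higher and 1 lower (8 called with brain as a block). Besides Penk, Ngfr and Gfra1, Ntrk3, the receptor for neurotrophin-3, was at 0.189 and 0.372 against 5.71 and 3.52 CPM (4.10 ± 0.47, adjusted p = 7.85e-05). The decrease was of Ntrk2, the receptor for brain-derived neurotrophic factor, at 601 and 639.8 against 451 and 428 CPM (-0.50 ± 0.12, adjusted p = 0.0119), which was not called with library totals (-0.30, adjusted p = 0.157) or when telencephalic sorted replicate 1 (-0.54, adjusted p = 0.0507) or replicate 2 (-0.46, adjusted p = 0.0791) was left out. Receptors of the neurotrophin family were thus split, with p75 and Ntrk3 higher and Ntrk2 lower in hindbrain cells. The 18 members had a median of -0.05, close to that of all genes.

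Ligands and receptors that steer growing axons differed in both directions, more often upward in hindbrain cells. Of 32 tested axon guidance genes 14 were higher, 4 lower and 14 not called, with a median of 0.43. The share called was 56.2%, against 15.2% of all genes tested, and the share called lower 12.5%, against 6.12%. Over all genes tested, calls were also more often upward (9.06%) than downward. The Slit ligands and their Robo receptors differed from each other. Slit3 was lower, as above, while Slit2 was higher at 244 and 275 against 425 and 371 CPM (0.62 ± 0.12, adjusted p = 0.00513; without telencephalic sorted replicate 1 0.53, adjusted p = 0.0769). Robo2 was at 10.4 and 12.2 against 34.9 and 31.3 CPM (1.56 ± 0.17, adjusted p = 6.39e-05) and Robo1 at 1.59 and 1.55 against 13.1 and 6.75 CPM (2.66 ± 0.31, adjusted p = 9.37e-05). The log2 change with the sort in hindbrain cells was 0.04 for Robo2 and -0.94 for Robo1. In telencephalic libraries Robo1 had 238 and 162 counts in whole tissue and 42 and 25 in sorted cells, which had more total counts. The difference of effects was called for Robo1 (2.37). Ephrins, membrane-bound ligands that act between touching cells, and their receptors differed in both directions. Efna5 was at 24.5 and 25.6 against 54.2 and 51.4 CPM (1.07 ± 0.12, adjusted p = 9.11e-05), its receptor Epha4 at 44.3 and 43.0 against 92.5 and 81.7 CPM (1.00 ± 0.12, adjusted p = 0.000112) and Efnb2, an ephrin of arteries among other tissues, at 6.46 and 8.56 against 21.4 and 20.5 CPM (1.499 ± 0.16, adjusted p = 4.04e-05). Efna2, another ephrin, was lower at 6.39 and 3.97 against 1.24 and 1.98 CPM (-1.70 ± 0.42, adjusted p = 0.0165), and so was the receptor Epha3 at 0.945 and 0.496 against 0.145 and 0.147 CPM (-2.30 ± 0.63, adjusted p = 0.0273); both were chosen after their values were seen. Without telencephalic sorted replicate 1 (-1.30, adjusted p = 0.17) or hindbrain sorted replicate 1 (-1.41, adjusted p = 0.0659) Efna2 was not called. Epha3 missed the threshold when either telencephalic sorted replicate 1 (-1.72, adjusted p = 0.256) or its hindbrain counterpart (-2.31, adjusted p = 0.0663) was left out, with any 1 whole-tissue library left out (adjusted p 0.0506 to 0.0581) or with the 4 sorted libraries fitted alone (-2.29, adjusted p = 0.125). Efnb2 had log2 changes with the sort of -3.00 and -2.04, endothelial markers fell with the sort as well, and their part was not tested.

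Signalling lists held calls in both directions. Of 14 Hedgehog genes 5 were higher and 3 lower in hindbrain cells. The target and antagonist Hhip was at 5.07 and 3.47 against 55.1 and 41.4 CPM (3.47 ± 0.24, adjusted p = 2.29e-06) and the ligand Shh at 0.113 and 0.186 against 8.69 and 8.22 CPM (5.84 ± 0.53, adjusted p = 1.48e-05). Gli1, an effector that the pathway itself induces, was at 0.0378 and 0.434 against 6.73 and 5.94 CPM (4.96 ± 0.60, adjusted p = 0.000116). Gli2, an effector that does not need induction, was at 46.9 and 51.4 against 33.5 and 31.3 CPM (-0.60 ± 0.14, adjusted p = 0.0117), which was not called with library totals (-0.40, adjusted p = 0.0997) or when telencephalic sorted replicate 2 was left out (-0.54, adjusted p = 0.0842). The list had 5 called members without telencephalic sorted replicate 1, 5 without telencephalic sorted replicate 2 and 5 with the 4 sorted libraries fitted alone. In the Wnt list 8 of 29 were higher and 4 lower (7 called without telencephalic sorted replicate 1). Wnt5a, a non-canonical ligand, was at 44.1 and 48.4 against 238 and 251 CPM (2.40 ± 0.12, adjusted p = 1.53e-07), Sfrp2, a secreted antagonist, at 4.72 and 4.09 against 21.9 and 21.0 CPM (2.27 ± 0.20, adjusted p = 1.41e-05) and the enhancer Rspo3 at 11.6 and 16.7 against 3.02 and 2.16 CPM (-2.44 ± 0.27, adjusted p = 6.43e-05). Both R-spondins named here were thus lower and the ligand and its antagonist higher in hindbrain cells. The list medians were 0.07 for Hedgehog and 0.57 for Wnt, and the shares called 57.1% and 41.4%, against 15.2% of all genes tested.

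Of 25 BMP and TGF-beta genes 10 were higher and 2 lower (6 called without telencephalic sorted replicate 1). Id4, a target of the pathway, was at 19.9 and 20.1 against 59.5 and 48.6 CPM (1.43 ± 0.15, adjusted p = 4.44e-05) with a change with the sort of 0.33 in hindbrain cells. Gdf10, a ligand, was at 1.17 and 0.434 against 11.3 and 8.73 CPM (3.54 ± 0.34, adjusted p = 2.40e-05), and Bmp2, another, at 0.151 and 0.0620 against 3.96 and 1.72 CPM (4.55 ± 0.66, adjusted p = 0.000554). In telencephalic whole tissue Gdf10 had 78 and 41 counts and Bmp2 21 and 16. The telencephalic sorted libraries, with more total counts, had 31 and 7 of Gdf10 and 4 and 1 of Bmp2. For Gdf10 the difference of effects was called (2.20). The part of other cells in both results was not tested. Of 15 retinoic acid genes 5 were higher and 2 lower. Rdh10, which oxidizes retinol, was lower at 212 and 213 against 98.1 and 87.6 CPM (-1.19 ± 0.11, adjusted p = 1.81e-05). Rarb, a receptor and target, was at 7.03 and 7.87 against 21.0 and 18.2 CPM (1.40 ± 0.18, adjusted p = 0.000162) in sorted cells but at 14.3 and 15.5 against 10.6 and 10.3 CPM in whole tissue, and the difference of effects was called (1.91 ± 0.25, adjusted p = 0.00241). In the FGF list 2 of 21 were higher and 4 lower, with 2 called without telencephalic sorted replicate 1 and 2 without telencephalic sorted replicate 2. Etv5, a transcriptional target of FGF signals, was at 7.75 and 9.61 against 21.6 and 15.3 CPM (1.10 ± 0.20, adjusted p = 0.00231). In the Notch list 4 of 17 were higher and 2 lower (3 called without telencephalic sorted replicate 1 and without either telencephalic whole library, 2 with the 4 sorted libraries fitted alone). Heyl, a target gene of vessel walls, was at 0.454 and 0.682 against 7.09 and 5.50 CPM (3.51 ± 0.29, adjusted p = 8.23e-06) and changed with the sort by -4.37 and -1.95. The medians of these lists were 0.53 for BMP and TGF-beta, 0.51 for retinoic acid, 0.18 for FGF and 0.48 for Notch genes. In that order the shares called were 48%, 46.7%, 28.6% and 35.3%, against 15.2% of all genes tested.

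Of 20 genes that define the choroid epithelium 2 were higher in hindbrain cells, 6 were lower and 12 were not called. The share called was 40%, against 15.2% of all genes tested, and the share called lower 30%, against 6.12%, with a median of -0.22. With library totals 5 were called, and leaving out telencephalic sorted replicate 1 or hindbrain sorted replicate 1 gave 4 and 5. Folr1, the folate receptor, was at 1143 and 1105 against 649 and 715 CPM (-0.72 ± 0.10, adjusted p = 0.000539). Otx2, a homeobox gene that maintains this epithelium, was at 585 and 604 against 628 and 541 CPM (log2 change -0.02 ± 0.11, adjusted p = 0.923), and the potassium channel gene Kcnj13 at 498 and 515 against 541 and 438 CPM (-0.05 ± 0.15, adjusted p = 0.882). Neither of these passed the test. Prlr, the prolactin receptor, was higher at 3.02 and 2.11 against 8.62 and 7.52 CPM (1.63 ± 0.32, adjusted p = 0.00411).

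The secreted proteins of the choroid plexus divided evenly, with 10 of 31 higher and 10 lower in hindbrain cells and a median of -0.02. Of its members with the lowest adjusted p, 3 were higher and had lower levels in sorted than in whole tissue. Sod3, the extracellular superoxide dismutase, was at 6.20 and 6.94 against 47.1 and 43.2 CPM (2.79 ± 0.15, adjusted p = 3.83e-07) with a log2 change with the sort of -1.58 in telencephalic and -0.39 in hindbrain cells. Igfbp7 was at 27.9 and 28.6 against 121 and 101 CPM (1.97 ± 0.18, adjusted p = 1.50e-05) with -2.78 and -0.89, and Serpinf1, pigment epithelium-derived factor, at 2.49 and 2.85 against 17.5 and 12.6 CPM (2.50 ± 0.23, adjusted p = 1.61e-05) with -1.67 and -0.81. The macrophage and vessel markers moved in the same way, and their part was not tested. Members that were lower included F5, coagulation factor V, at 168 and 203 against 71.9 and 66.6 CPM (-1.42 ± 0.13, adjusted p = 1.90e-05), and Mdk, the growth factor midkine, at 186 and 202 against 65.2 and 92.2 CPM (-1.30 ± 0.16, adjusted p = 0.000136). Ptn, pleiotrophin, the closest relative of midkine, was higher at 18.8 and 17.0 against 81.9 and 44.6 CPM (1.82 ± 0.23, adjusted p = 0.00016). The telencephalic libraries of F5 and Mdk were all above the hindbrain ones, and those of Ptn all below.

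Transport genes for ions and water were called about as often as genes in general, and more of those for solutes were lower than higher in hindbrain cells. Of 32 ion and water transport genes 3 were higher, 3 lower and 26 not called, a share of 18.8% against 15.2% of all genes tested, with a median of -0.15. Slc4a10 and Slc4a5 were higher, as above. Slc4a4, the electrogenic sodium bicarbonate cotransporter, was lower at 109.6 and 124 against 77.5 and 74.8 CPM (-0.62 ± 0.11, adjusted p = 0.00241). The bicarbonate transporters therefore did not move together. Of 33 solute, vitamin and drug transport genes 6 were higher, 12 lower and 15 not called, with a median of -0.35 (10 called without telencephalic sorted replicate 1, 11 without telencephalic sorted replicate 2). Abca4, a lipid transporter, was higher at 125 and 139 against 404 and 475 CPM (1.74 ± 0.14, adjusted p = 5.51e-06), and Slc22a8, an organic anion transporter, lower at 179 and 172 against 97.1 and 85.0 CPM (-0.95 ± 0.12, adjusted p = 0.000195). Abcg2, a drug efflux pump of vessels and other cells, was at 3.82 and 3.47 against 12.3 and 10.01 CPM (1.60 ± 0.20, adjusted p = 0.000161) with log2 changes with the sort of -2.31 and -1.05, beside the endothelial markers given above. Of 23 genes of metal handling 6 were higher and 3 lower, with a median of -0.17 (4 called without telencephalic sorted replicate 1), among them the metalloreductase Steap2 at 75.4 and 87.7 against 145 and 124 CPM (0.72 ± 0.12, adjusted p = 0.00161) and the iron exporter Slc40a1 at 8.77 and 7.50 against 33.8 and 15.8 CPM (1.60 ± 0.28, adjusted p = 0.00218).

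Junction proteins and cadherins, which hold epithelial sheets together, differed in both directions. Of 29 tight junction and cadherin genes 8 were higher and 5 lower (7 called without telencephalic sorted replicate 1, 8 without telencephalic sorted replicate 2), with a median of 0.02. Marveld2, tricellulin, was at 41.3 and 39.4 against 84.3 and 73.3 CPM (0.96 ± 0.13, adjusted p = 0.000336), Cldn9, a claudin, at 7.86 and 7.01 against 15.8 and 16.7 CPM (1.12 ± 0.18, adjusted p = 0.00119) and the protocadherin Pcdh9 at 40.1 and 38.5 against 97.6 and 79.8 CPM (1.17 ± 0.16, adjusted p = 0.000404). Their log2 changes with the sort were 0.41, 0.48 and 0.65 in hindbrain cells. Cdh11, a cadherin of mesenchyme, was at 49.1 and 45.1 against 271 and 151 CPM (2.17 ± 0.24, adjusted p = 6.39e-05) with a change of -1.66 in telencephalic cells. Of 25 genes of motile cilia 1 was higher and 4 lower, with a median of 0.00. The share called was 20%, against 15.2% of all genes tested. The count of 5 was 0 without telencephalic sorted replicate 1, 2 without telencephalic sorted replicate 2 and 3 with library totals, so no member is described singly.

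**Figure D5:**
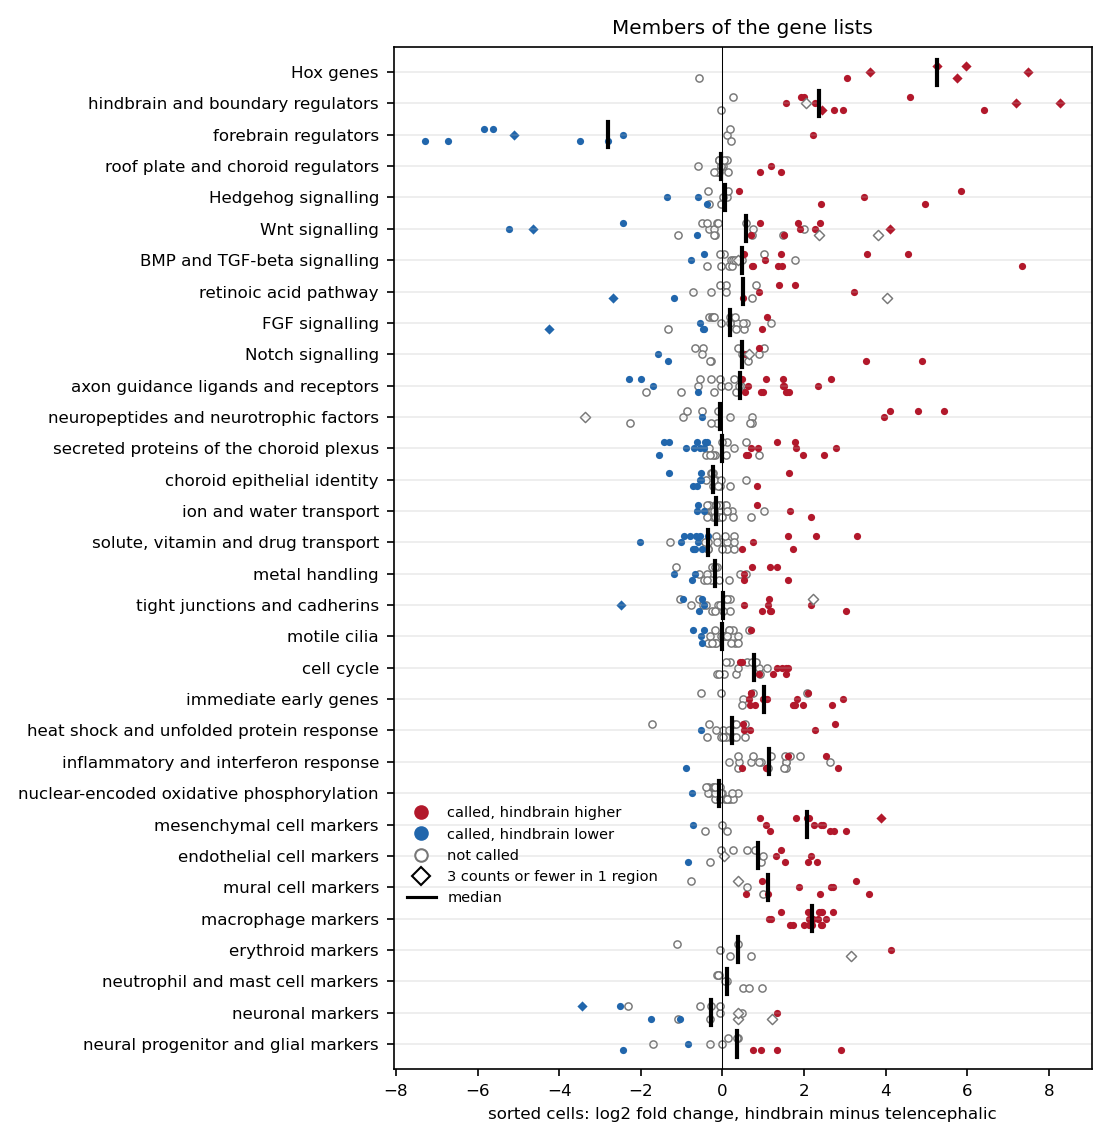
Log2 change in sorted cells, hindbrain minus telencephalic, of each tested member of 32 gene lists (rows), with called members in red (higher) or blue (lower), uncalled ones open and the median of the list as a black bar. Diamonds are members with 3 counts or fewer in 1 region, drawn at their bound or counting ratio, which the medians use too. The macrophage row lies wholly to the right of 0, and the rows of identity and ion transport genes centre just left of it.

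Genes that mark the state of the cells also differed. Of 22 immediate early genes, which cells switch on within minutes of many kinds of stimulus, 16 were higher in hindbrain cells and 6 not called, with a median of 1.01 and 10 called without telencephalic sorted replicate 1. In whole tissue 1 was higher. Fosb was at 28.6 and 37.8 CPM in the telencephalic libraries and 101 and 133 CPM in the hindbrain libraries (1.82 ± 0.18, adjusted p = 2.27e-05) and at or below 0.210 CPM in every whole-tissue library. Atf3, a stress-induced factor, was at 6.73 and 10.8 against 31.8 and 35.8 CPM (1.96 ± 0.26, adjusted p = 0.000263) in sorted cells and 0.428 and 0.524 against 0.927 and 0.378 CPM in whole tissue. Zfp36, which destabilizes inflammatory mRNAs, was at 53.3 and 71.5 against 186 and 231 CPM (1.74 ± 0.18, adjusted p = 4.16e-05), and Klf6, a Krüppel-like factor, at 27.0 and 32.7 against 112 and 145 CPM (2.11 ± 0.16, adjusted p = 3.93e-06). Fosb, Atf3 and Zfp36 were called higher after the sort in both regions. Klf6 was called higher after the sort in hindbrain cells (log2 change 1.51) and not in telencephalic cells (-0.38, adjusted p = 0.102). The difference of effects was called for Klf6 (1.89 ± 0.22, adjusted p = 0.00179) and Zfp36 (1.54 ± 0.27, adjusted p = 0.0116). Of 22 heat shock and unfolded protein response genes 5 were higher and 1 lower with a median of 0.23, and 2 were called without telencephalic sorted replicate 1 and 3 without telencephalic sorted replicate 2, with the 4 sorted libraries fitted alone and without either telencephalic whole library. Hspa1b, an inducible HSP70, was at 1.10 and 1.74 against 6.11 and 12.9 CPM (2.77 ± 0.42, adjusted p = 0.000816), and its reads may be shared with its near-identical copy Hspa1a.

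Inflammatory genes differed between replicates as well as between regions. Of 24 tested, 5 were higher, 1 lower and 18 not called, with a median of 1.15, and 17 were called with brain as a block. Cxcl10, an interferon-induced chemokine, was at 0.794 and 19.7 against 4.55 and 51.9 CPM (log2 change 1.51, adjusted p = 0.391), and with the block its change was 1.75 ± 0.26, adjusted p = 0.000543. Tnf, tumour necrosis factor, was at 0.151 and 4.77 against 3.20 and 25.3 CPM (2.64, adjusted p = 0.114; 2.88 ± 0.38, adjusted p = 0.000235 with the block). For each of them replicate 2 was the higher library in each region, and hindbrain the higher region within each replicate. Tnfaip3, an inhibitor of NF-kappaB signalling, was at 9.26 and 21.9 against 35.5 and 58.9 CPM (1.62 ± 0.33, adjusted p = 0.00595), and was not called when telencephalic sorted replicate 1 was left out (1.10, adjusted p = 0.0544). Ccl3, a macrophage chemokine, was at 1.59 and 10.2 against 21.0 and 44.5 CPM (2.55 ± 0.59, adjusted p = 0.0119), and DESeq2 gave an adjusted p of 0.109. With library totals the list had 11 called members, and leaving out telencephalic sorted replicate 1, telencephalic sorted replicate 2 or hindbrain sorted replicate 1 gave 3, 13 and 14. Macrophages make several of these factors. The summed macrophage markers were 54.5 and 91.2 CPM in the telencephalic and 326 and 279 CPM in the hindbrain sorted libraries. Replicate 2 was thus the higher library for the markers in telencephalic cells and the lower in hindbrain cells. The part of macrophages in these results was not tested.

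Cell cycle genes were higher in 9 of 22 cases and not called in 13, with a median of 0.78 and 5 called without telencephalic sorted replicate 1. In whole tissue 0 of the 22 were called by edgeR and 2 by DESeq2, and 10 had an unadjusted p below 0.05 in edgeR. The sort lowered 15 of them in telencephalic and 13 in hindbrain cells (median log2 change -1.25 and -0.77). The summed macrophage and mural markers, also higher in hindbrain sorted cells, stood at 27.5% and 19.0% of the whole-tissue level in telencephalic and 92.4% and 64.1% in hindbrain sorted cells, and their part in the cell cycle result was not tested. Mki67, a marker of dividing cells, was at 11.5 and 18.54 CPM in the telencephalic libraries and 33.7 and 41.9 CPM in the hindbrain libraries (1.35 ± 0.20, adjusted p = 0.000661). In whole tissue it was at 70.7 and 89.0 against 125 and 124 CPM, so its level was lower in sorted cells in both regions. Mcm3, a helicase subunit of DNA replication, was at 1.97 and 2.79 against 6.18 and 8.14 CPM (1.61 ± 0.26, adjusted p = 0.0011), with changes with the sort of -1.92 and -0.60. Of 23 nuclear-encoded genes of oxidative phosphorylation 1 was lower and 22 were not called (5 called without hindbrain sorted replicate 2), with a median of -0.09. Atp5b, a subunit of ATP synthase, was at 1488 and 1608 against 1992 and 2075 CPM (log2 change 0.39 ± 0.16, adjusted p = 0.129; 0.39 ± 0.12, adjusted p = 0.0349 with brain as a block). The called member, Ndufa1, a small subunit of respiratory complex I, was at 75.0 and 63.5 against 38.8 and 44.0 CPM (-0.74 ± 0.13, adjusted p = 0.00202).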

How the data were processed

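RNA-seq read counts per gene of 8 libraries were used as the authors deposited them, in 1 table of 23284 genes. Per the submitters' processing notes the build was mm9 and the tools were DESeq 1, HTSeq, Bowtie2 2.0.5, TopHat2 2.0.4 and CASAVA 1.8.2. The sources used here give neither the gene annotation nor the strand setting. Per the labels' protocols RNA was pre-amplified and the kits mark no strand, so antisense pairs cannot be told apart. Without molecular identifiers, counting intervals and floors cover counting error only.

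Genes passing edgeR's filterByExpr (minimum count 10, minimum total 15) were kept, 15698 in all. Group means of all 8 libraries were fitted by edgeR 4.0.16 (R 4.3.3; TMM scaling, quasi-likelihood F test, Benjamini-Hochberg adjustment), tested on simulated data. The pooled spread rests on 4 residual degrees of freedom. Alternatives were RLE or total-count scaling, no filter, the sorted libraries alone, a test against 1.5-fold, DESeq2 1.42.0, and 1 library left out at a time.

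The design text says that both regions came from the same brains, and same-numbered libraries deviated together (correlation of deviations 0.145 in sorted and 0.193 in whole libraries), so brain served as a block in an alternative fit. P-values measure the spread among these samples.

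The members and lists were chosen with earlier results of these data known. Of 687 list symbols 683 were found, 4 under an older symbol. Named genes were the 12 largest folds per direction with at least 10 CPM in the higher group and no overlap of libraries, and the 8 largest CPM differences per direction, leaving out predicted and unnamed genes and Rn45s. They were also, from each list, the 4 called members with the lowest adjusted p (the 2 members of highest level if under 2 were called), the 6 largest interactions and the 6 largest folds also raised by the sort, per direction, with at least 10 CPM, and cell type markers. Epha4, Gli2, Kcnj13, Mdk, Ndufa1, Nr2f1, Ntrk2, Otx2, Ptn, Robo1, Slit2, Cxcl10, Tnf and Ddx3y were chosen after their values were seen. Some genes that these rules select are not reported here. Reads shared by near-identical genes are uncertain.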

Additional observations from a re-analysis of the deposited data

Results flagged for a closer look

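The regional effect differed between sorted cells and whole tissue for 211 genes by the interaction term of the fit, and 39 of the genes named in the report were among them, 29 with a positive and 10 with a negative difference. All values are log2 differences, the hindbrain minus telencephalic change in sorted cells minus that in whole tissue. Markers of vessels, pericytes, macrophages and mesenchyme had differences of 2.25 for Abcc9, 1.97 for Pdgfrb, 3.28 for Rgs5, 3.07 for Kcnj8, 1.61 for Cdh5, 2.05 for Emcn, 1.97 for C1qb, 1.47 for Col3a1 and 2.11 for Prrx1. Other genes known from vessels or mesenchyme had differences of 2.86 for Sparcl1, 2.67 for Tmem100, 2.42 for Heyl, 0.96 for Efnb2, 1.26 for Abcg2, 1.89 for Igfbp7, 1.55 for Cdh11 and 1.19 for Sod3. Signalling, adhesion and other genes had differences of 2.55 for Filip1, 2.31 for Dlk1, 2.30 for Cdh10, 2.42 for C7, 2.20 for Gdf10, 1.94 for Hhip, 2.37 for Robo1, 1.91 for Rarb, 1.30 for Etv5 and 0.84 for Wnt5a. Immediate early genes had differences of 1.89 for Klf6 and 1.54 for Zfp36. Genes with a negative difference were S100a8 at -4.54, Ranbp3l at -1.87, Reln at -3.22, Maob at -2.92, Ppp2r2c at -2.82, Ly6a at -2.69, Slc6a13 at -1.67, Rspo2 at -1.51, Slc7a11 at -1.32 and Slit3 at -1.01. The summed macrophage, mural and endothelial markers stood at 92.4%, 64.1% and 24.0% of the whole-tissue level in hindbrain and at 27.5%, 19.0% and 17.0% in telencephalic sorted cells, and their part in these differences was not tested. Kdr held the most counts of the endothelial list in every sorted library.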

How the results depend on the processing

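Of 121 genes whose change in sorted cells was called and is given in the report, 105 kept the call under every alternative other than the test against a 1.5-fold change, 16 lost it in at least 1, and 0 turned direction. The test against 1.5-fold kept 97 of them. With library totals as the scale there were 2354 higher and 466 lower genes, with the sorted libraries alone 1460 in all (901 higher, 559 lower), and against 1.5-fold 788 (595 higher, 193 lower). Leaving out 1 library at a time gave 1051 to 3252 genes, 695 to 1793 higher and 356 to 1459 lower. The lowest count was without telencephalic sorted replicate 1 and the highest without hindbrain sorted replicate 2. With the replicate block (brain) the count was 2943, and the block ended the call of Lars2 and of no other gene given in the report. In whole tissue 909 genes became 280 against 1.5-fold and 316 to 1341 with a library left out. The count of 211 differences between preparations became 441 without a filter, 337 with the block, 92 against 1.5-fold, 317 with DESeq2 and 58 to 473 with a library left out. Sorted minus whole counts were 3472 in the hindbrain (954 against 1.5-fold, 1691 to 3875 with a library left out) and 3517 in the telencephalon (1034, and 1519 to 4501). The share of higher genes above 0 with the sort, 44.2%, became 32.8% with library totals, 40.8% against 1.5-fold and 38.6% to 55.8% with a library left out. For lower genes 70.4% became 42.9%, 65.3% and 64.2% to 74.4%; the alternatives for these shares were chosen after seeing the data. Kcnj13 and Otx2, neither of them called, changed sign: they were at 0.16 and 0.18 with library totals as the scale, and with a library left out at -0.21 to 0.09 and -0.14 to 0.08. The cause was not tested in these cases. Leaving out a library also leaves fewer samples to estimate the spread, and the lone library of its group is then assumed to vary like the other groups. With 2 libraries per group, small changes were not all detectable, and genes at 3 counts or fewer in a region have bounds only.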
